A study of Mus musculus with 11 samples.

Results

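The type I interferon-stimulated genes described here are 41 genes taken from a list of the classical antiviral response, of which 39 were measured among 22180 genes on 11 arrays. A gene was represented by the probe set that carries its symbol alone, and by the one with the highest mean where there were several, which was the case for Ifi35 and Sp100. No probe set was named for Ifi44, and Dtx3l shared its only probe set with its neighbour Parp9, so both were not analysed here.

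The RNA came from bone marrow common lymphoid progenitors (CLPs), from which B, T and natural killer cells and some dendritic cells develop. C57BL/6 mice, whose age, sex and genotype beyond the strain the labels do not give, received PBS or CpG1826 (50 µg) every other day, and CLPs were sorted on day 10. CpG1826 is a synthetic oligonucleotide with unmethylated CpG motifs that activates the endosomal receptor Tlr9. The CLPs were split by the surface protein Ly-6D, whose presence marks cells that lean towards the B lineage. The 4 groups were Ly-6D+ CLPs after PBS (2 arrays), Ly-6D+ CLPs after CpG (3 arrays), Ly-6D- CLPs after PBS (3 arrays) and Ly-6D- CLPs after CpG (3 arrays). The labels do not say whether arrays of 1 group came from separate mice or pools, nor whether both populations came from the same mice, so p-values measure the spread between these samples only.

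Type I interferons bind the receptor Ifnar1-Ifnar2 on nearly all cells. The receptor's kinases activate the complex ISGF3, which contains Stat2 and Irf9 and binds interferon-stimulated response elements (ISREs) in the promoters of target genes. The targets include sensors of viral nucleic acid, enzymes and binding proteins that act on viral RNA, the ubiquitin-like protein Isg15 and its enzymes, and the factor Irf7, which amplifies interferon production. In bone marrow, interferons and Tlr9 ligands are known to act on progenitor cells as well as on mature immune cells.

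The stretches below show the element that ISGF3 recognises where it was found next to the start of a listed gene, because the list is defined by response to this pathway. RefSeq windows of 300 bases around the gene start (build GRCm38.p6) matched 31 of the 41 genes. The core letters GAAANNGAAA, searched on both strands with overlapping matches joined, were in 12 of the 31 (38.7%) against 1079 of 27025 genes with such a window (3.99%). Capitals mark the match, lower case its 6 neighbouring letters on either side, and each is written along the strand of its gene. The number after a name is the position of the first capital from the gene start, negative upstream of it:
Ddx58 at 2: aggcagTTTCGATTTCctatgg
Eif2ak2 at 18: cgccggGAAAACGAAAcagaag
Ifih1 at 32: agaatcGAAACAGAAAccgatc
Ifit1 at -104: cttcagTTTCACTTTCcagtct
Ifit1 at -85: tctcagTTTCAGTTTCtcactg
Ifit3 at -156: ggtaagTTTCACTTTCctcttc
Ifit3 at -122: agtctgTTTCAGTTTCtacttt
Ifitm3 at 2: attcagGAAAAGGAAActtctg
Ifitm3 at 19: ttctgaGAAACCGAAActgccg
Isg15 at -78: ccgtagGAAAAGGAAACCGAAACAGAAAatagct
Oas3 at -75: ggaggaGAAAACGAAAgtgaag
Rsad2 at -120: tccaacTTTCATTTTCagaaaa
Stat2 at -222: ccctggTTTCAGTTTCctttcc
Trim21 at 13: tgagagGAAACTGAAAGTGAAAtttgga
Trim30a at 2: ttttagTTTCTTTTTCtcagtt
Trim30a, other start, at -36: ctttagTTTCTTTTTCtcagtt
The stretch of Ddx58, the member that recurs in the results, lies at chr4:40239808-40239829 on the minus strand, and that of Stat2 at chr10:128270270-128270291 on the plus strand. The Isg15 run at chr4:156200869-156200902 on the minus strand holds overlapping copies of the core. A match is a description of letters, and its absence from the windows of the 19 other genes says nothing about binding.

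In the array data as a whole, the sort was visible in Ly6d, whose log2 level averaged 12.6 in Ly-6D+ CLPs after PBS and 8.23 in Ly-6D- CLPs after PBS. The CLP genes Il7r, Flt3 and Dntt lay at the percentiles 97.6, 98.6 and 99.8 of the mean level over all arrays. Over all genes, the arrays numbered 3 deviated together from their group means (r across genes of 0.0905 to 0.176, with genes not independent). All 39 interferon-stimulated genes lay above the median gene in mean log2 level, and none was in the dimmest 33.3%. Rsad2 and Mx1 were only just above the median, at the percentiles 50.3 and 51.5. Readings of Mx1 (down to 3.56), Mx2 (down to 3.98), Rsad2 (down to 3.94) and Ifit1 (down to 4.32) fell below the median of all genes on their array. For Mx1 this held on every Ly-6D- CpG array, with 3.95, 4.30 and 3.56 against medians of 4.30, 4.31 and 4.37. How near these readings lie to background was not tested. Probes differ in brightness, so levels are compared between groups and not between genes. Arrays measure RNA pooled over the sorted cells, and fewer cells of a type cannot be told apart from less RNA per cell.

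The mean log2 level of the 39 genes ran from 6.73 to 7.27 over the 11 arrays. It was 6.91 and 6.82 in Ly-6D+ CLPs after PBS, 6.86, 7.01 and 6.73 in Ly-6D+ CLPs after CpG, 7.27, 7.10 and 6.97 in Ly-6D- CLPs after PBS, and 6.79, 7.01 and 6.94 in Ly-6D- CLPs after CpG. The highest array belonged to Ly-6D- CLPs after PBS, and the ranges of the groups overlapped except between the PBS-treated populations. Ly-6D- CLPs after PBS had the highest group mean for 18 of the 39 genes, against 25% of all genes. Many members moved together within the Ly-6D- PBS and Ly-6D+ CpG groups. Ly-6D- PBS replicate 1 was the highest of its group for 25 of 39 (34.6% of all genes) and replicate 3 the lowest for 26 (34.1%). Ly-6D+ CpG replicate 2 was the highest for 26 (33.7%) and replicate 3 the lowest for 24 (34.7%). The other groups showed this less. Ly-6D- CpG replicate 1 was the lowest for 20 (35.1%), while replicates 2 and 3 were the highest for 18 and 17. Ly-6D+ PBS replicate 1 was the highest for 24 (53.5%) and the lowest for 17 (49.8%). The median SD between arrays of a group was 0.10 to 0.20 for the members and 0.11 to 0.15 for all genes.

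**Figure D1:**
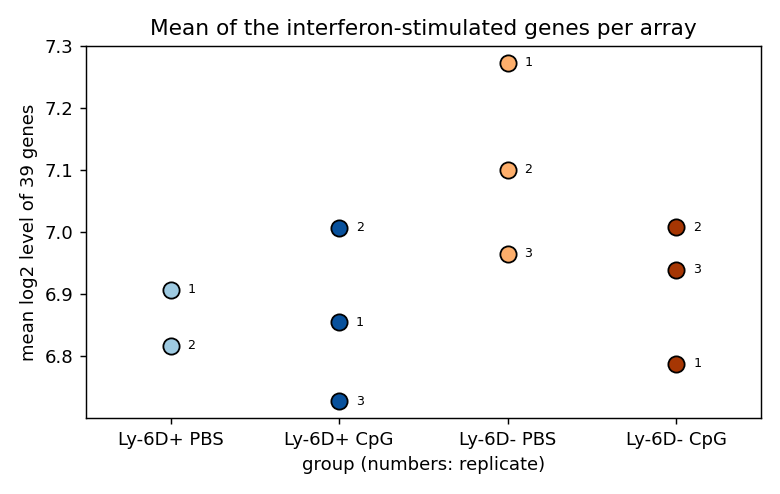
Mean log2 level of the 39 measured interferon-stimulated genes on each array (vertical axis), by group (horizontal axis), with the replicate number beside each point. The 3 Ly-6D- PBS arrays read 7.27, 7.10 and 6.97, and the Ly-6D+ PBS arrays 6.91 and 6.82.

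**Figure D2:**
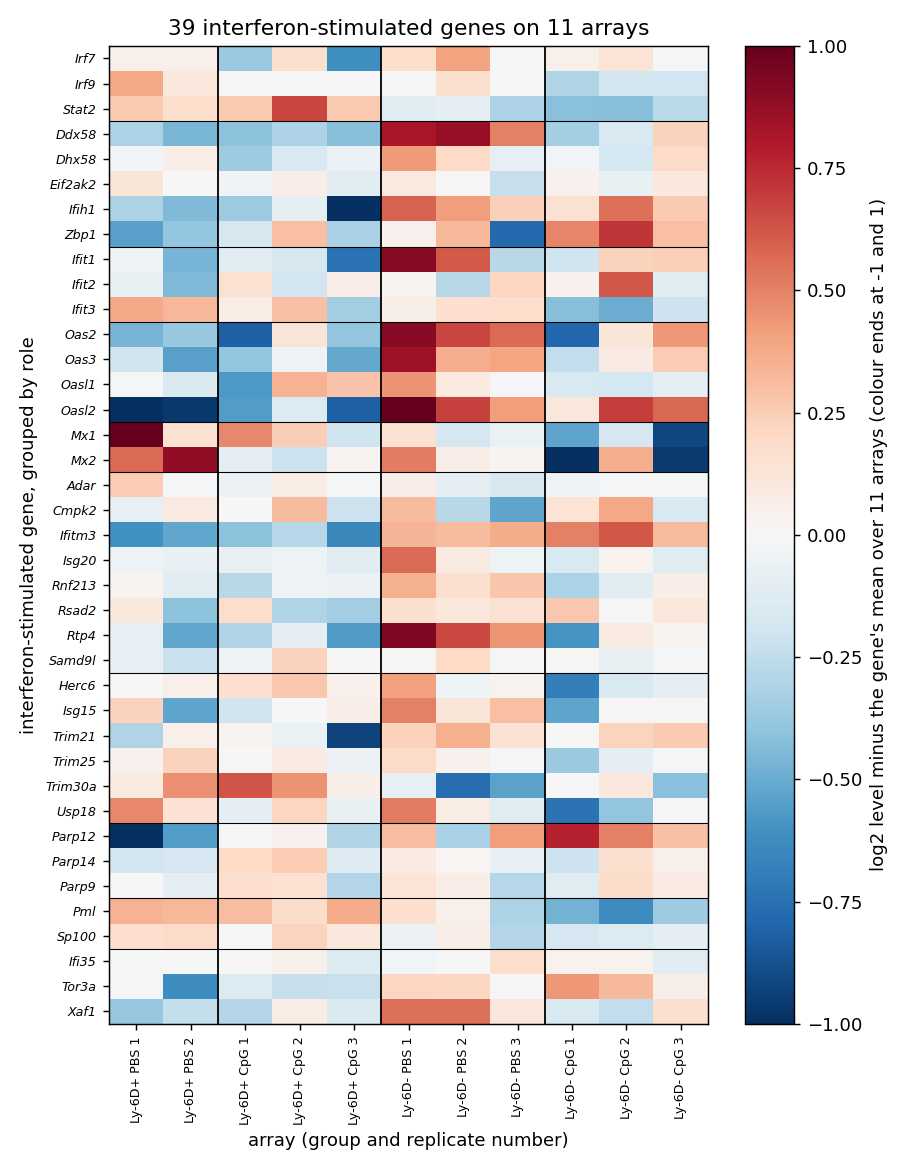
Log2 level of each of the 39 genes (rows, grouped by role) on each of the 11 arrays (columns), as the difference from the gene's mean over all arrays, with colours ending at -1 and 1. Red cells gather in the Ly-6D- PBS columns for Ddx58, Oas2, Oas3, Rtp4 and Xaf1, while Stat2 and Pml are red in the Ly-6D+ columns.

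The first question was whether repeated CpG treatment left an interferon-stimulated signature in the progenitors on day 10. In Ly-6D- CLPs, 1 of the 39 genes passed the test, and it was lower: Ddx58, the cytosolic RNA sensor RIG-I, fell by 0.82 on the log2 scale (1.76-fold lower, SE 0.15, limma adjusted p = 0.0465). Of all genes, 0.546% passed, 0.302% higher and 0.243% lower. A gene passed when the limma p, adjusted by Benjamini-Hochberg over 22180 genes, was below 0.05. The log2 change was below 0 for 29 members and above 0 for 10 (50.2% of all genes were below 0 and 49.8% above), with a median of -0.20 against -0.00057 over all genes. Without adjustment, 13 members were lower and 1 higher at p below 0.05, against 5.66% and 6.35% of all genes. The CpG and PBS arrays did not overlap for 13 members, all of them lower after CpG, against 7.20% of all genes lower and 8.50% higher. The 95% interval of the change lay below a 2-fold rise for 38 of the 39 genes, with a median half-width of 0.37. The share over all genes was not computed, so this count describes the precision of the fit and is no trait of these genes.

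The median of -0.20 in Ly-6D- CLPs was -0.10 without Ly-6D- PBS replicate 1, the array with the highest member mean, and -0.33 without the arrays numbered 3. Markers of other cells moved in the same comparison. All 8 monocyte markers were higher after CpG in Ly-6D- CLPs, and 4 of them passed: Ccr2 (log2 change 1.57), F13a1 (1.81), Ly6c2 (1.09) and Ms4a6c (1.28). The summed linear level of that list was 2737 to 3284 on the PBS arrays and 4955 to 7504 on the CpG arrays. All 6 CLP markers were lower, and 2 passed, Il7r (-0.81) and Rag2 (-0.75), with a summed level of 9542 to 9838 on the PBS arrays and 6797 to 8342 on the CpG arrays. The part of these shifts in the interferon-stimulated values was not tested.

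In Ly-6D+ CLPs, 0 of the 39 genes passed the limma test for CpG against PBS, where 0.0271% of all genes did, all of these higher. The log2 change was above 0 for 19 members and below 0 for 20 (51.0% and 49.0% of all genes), with a median of -0.0055 against 0.0032 over all genes. At an unadjusted p below 0.05, 1 member was higher and 1 lower (3.13% and 3.38% of all genes). The arrays did not overlap for 5 members that were higher and 4 that were lower after CpG, against 10.7% and 9.76% of all genes. The 95% interval lay below a 2-fold rise for 36 of the 39 genes, with a median half-width of 0.41. Here too the share over all genes was not computed, so the count is no trait of these genes. Leaving out Ly-6D+ CpG replicate 3 gave a median of 0.089, and leaving out replicate 2 of that group gave -0.070. In these arrays the 8 monocyte markers were also all higher after CpG, with 0 past the test and a summed level of 3753 to 3806 after PBS and 4225 to 4864 after CpG.

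**Figure D3:**
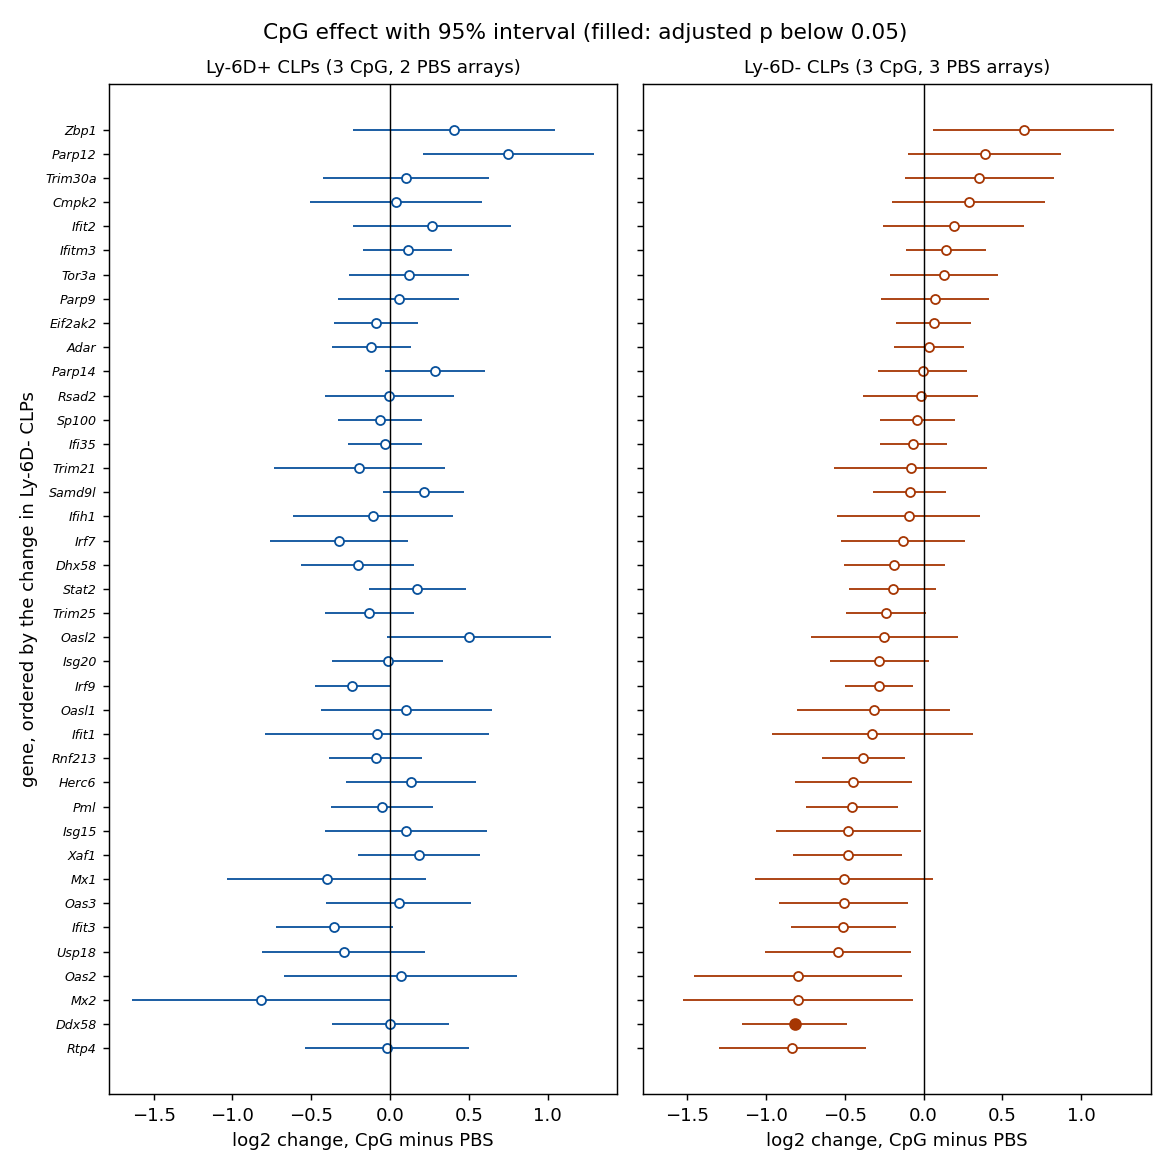
Log2 change after CpG (horizontal axis, CpG minus PBS, with 95% interval) for each of the 39 genes (vertical axis, ordered by the Ly-6D- change), with Ly-6D+ CLPs on the left and Ly-6D- CLPs on the right. Filled points passed the test: the only one is Ddx58 in Ly-6D- CLPs at -0.82, and 29 of 39 points lie below 0 on the right against 20 of 39 on the left.

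Over both populations together, 0 members passed for the average CpG change (0.482% of all genes passed), and the smallest adjusted p was 0.155 by limma. At an unadjusted p below 0.05, 9 members were lower and 2 higher in the average (5.54% and 5.80% of all genes). The average was below 0 for 28 members and above 0 for 11 (49.5% and 50.5% of all genes), and its median was -0.14 against 0.0018 over all genes. The difference between the CpG changes of the populations (Ly-6D- minus Ly-6D+) was tested directly, and 0 members passed, as did 0 of all genes (0.00%). Its median over the members was -0.11 against -0.00097 over all genes, with 25 members below 0 and 14 above (50.2% and 49.8% of all genes). By limma, 5 members were lower and 0 higher at an unadjusted p below 0.05 (3.05% and 3.32% of all genes, 6.37% in all). The members with the smallest p in this difference were Ddx58 (-0.82), Xaf1 (-0.67), Rtp4 (-0.81) and Oasl2 (-0.75), with limma adjusted p of 0.622, 0.688, 0.748 and 0.770.

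The second question was how the 2 populations differ. After PBS, 3 of the 39 genes passed, all lower in Ly-6D+ than in Ly-6D- CLPs: Oasl2, Ddx58 and Ifitm3. Of all genes, 1.98% passed, 1.18% higher and 0.798% lower. The difference was below 0 for 26 members and above 0 for 13 (51.9% and 48.1% of all genes), with a median of -0.22 against -0.0091 over all genes. At an unadjusted p below 0.05, 11 members were lower and 4 higher (6.06% and 5.86% of all genes). The arrays did not overlap for 15 members that were lower and 6 that were higher in Ly-6D+ CLPs, against 14.0% and 12.9% of all genes. After CpG, 4 members passed, Stat2 and Pml higher and Oasl2 and Ifitm3 lower in Ly-6D+ CLPs, where 2.14% of all genes passed, 1.20% higher and 0.938% lower. There 22 members were below 0 and 17 above (50.9% and 49.1% of all genes), and 8 were higher and 6 lower at an unadjusted p below 0.05 (5.90% and 6.82%). The median was -0.040 against -0.0041 over all genes, and arrays did not overlap for 5 members in either direction (7.89% of all genes higher, 9.04% lower).

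The Ly-6D- PBS arrays enter both the CpG change in Ly-6D- CLPs and the difference between populations after PBS, so the 2 comparisons are not independent. The plasmacytoid dendritic cell markers differed between the populations: all 9 measured ones were higher in Ly-6D+ CLPs, 6 past the test after PBS and 7 after CpG. Their summed linear level was 14808 to 15299 in Ly-6D+ and 7905 to 8719 in Ly-6D- CLPs after PBS, and 14575 to 14983 and 8679 to 8746 after CpG. All 9 neutrophil markers were lower in Ly-6D+ CLPs after PBS, 0 of them past the test, with summed levels of 12644 to 16661 and 16319 to 18145, and 3 passed after CpG, lower in Ly-6D+ CLPs: Ctsg (-2.36), Mpo (-1.78) and Prtn3 (-1.93). Of the 8 monocyte markers, 2 passed after PBS, both lower in Ly-6D+ CLPs: Ccr2 (-1.25) and F13a1 (-2.05). After CpG 4 passed, all lower in Ly-6D+ CLPs: Ccr2 (-1.91), Csf1r (-1.69), F13a1 (-3.03) and Ms4a6c (-1.16). These do not stand for the whole list, whose summed level after PBS was higher in Ly-6D+ CLPs (3753 to 3806 against 2737 to 3284). After CpG that sum was 4225 to 4864 in Ly-6D+ and 4955 to 7504 in Ly-6D- CLPs. The summed levels of the T cell, NK cell, mature B cell and erythroid markers stayed between 19.9 and 108 on every array. The part of these markers in the differences between populations was not tested.

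**Figure D4:**
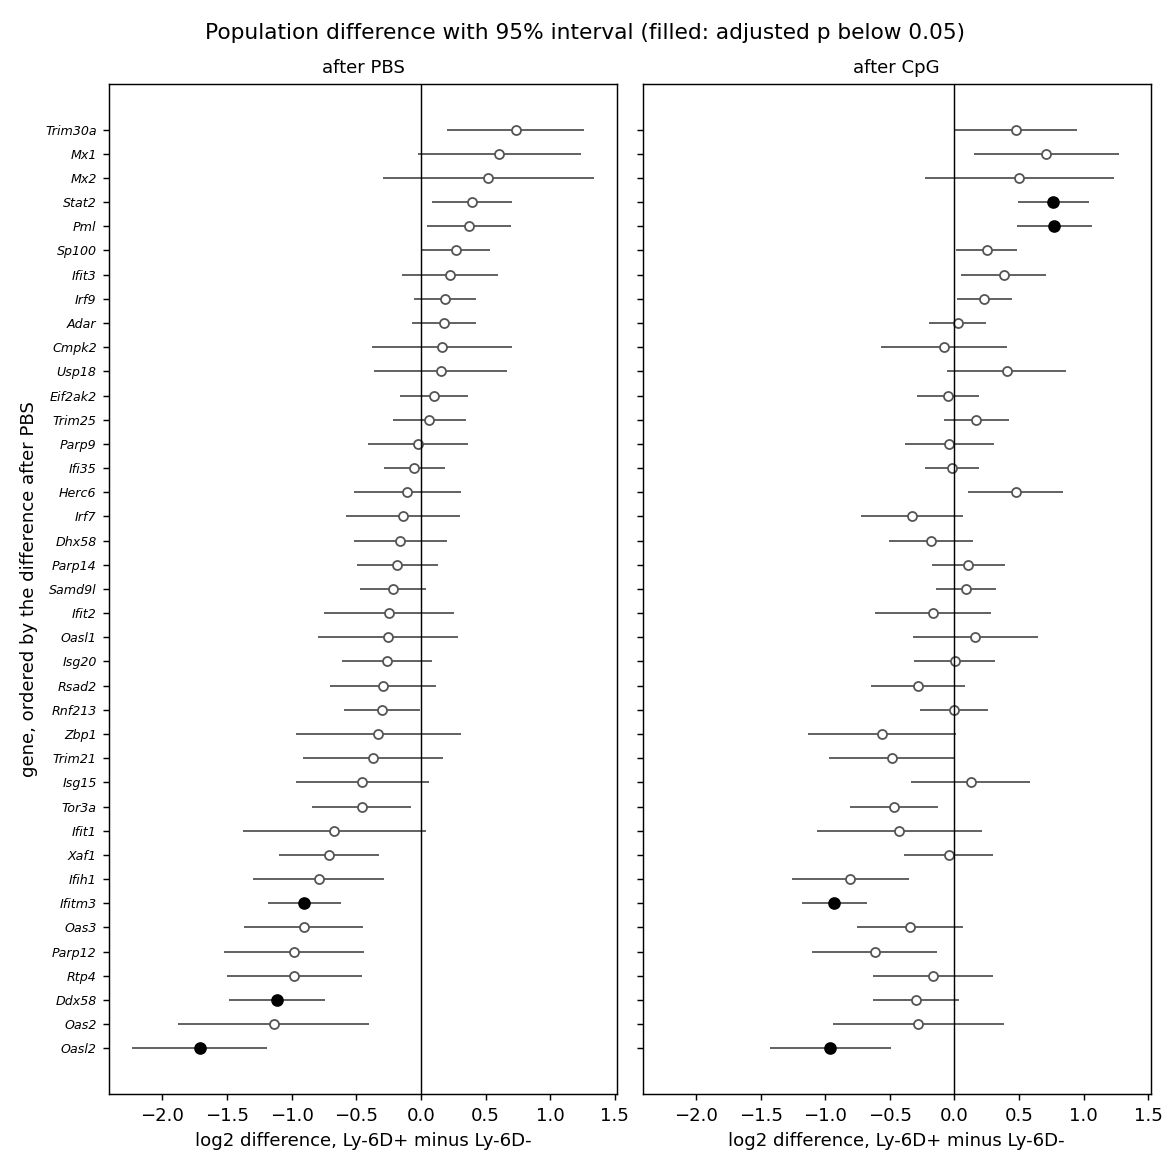
Log2 difference between the populations (horizontal axis, Ly-6D+ minus Ly-6D-, with 95% interval) for each of the 39 genes (vertical axis, ordered by the difference after PBS), after PBS on the left and after CpG on the right. Filled points passed the test: Oasl2 (-1.71), Ddx58 (-1.12) and Ifitm3 (-0.90) after PBS, and Stat2 (0.77), Pml (0.77), Ifitm3 (-0.93) and Oasl2 (-0.96) after CpG.

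Among the sensors of nucleic acid, Ddx58 gave the clearest pattern. It detects viral RNA with a free triphosphate end in the cytosol and starts interferon production through Mavs. Its log2 level was 7.37, 7.42 and 7.06 in Ly-6D- CLPs after PBS, 6.21, 6.40 and 6.78 in Ly-6D- CLPs after CpG, 6.24 and 6.09 in Ly-6D+ CLPs after PBS, and 6.14, 6.24 and 6.12 in Ly-6D+ CLPs after CpG. The 3 Ly-6D- PBS arrays were thus above the 8 others. In Ly-6D+ CLPs the change after CpG was 0.0023 (SE 0.17, 95% interval -0.37 to 0.37, limma adjusted p = 1). After PBS, Ddx58 was 2.17-fold lower in Ly-6D+ than in Ly-6D- CLPs (log2 difference -1.12, SE 0.17, limma adjusted p = 0.00618), and after CpG the difference was -0.30 (adjusted p = 0.459).

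The CpG call of Ddx58 in Ly-6D- CLPs stood only without Ly-6D- CpG replicate 3 when 1 array was left out. Leaving out any of the 10 others ended it, with limma adjusted p of 0.0656 to 0.178 and log2 changes of -0.93 to -0.69. The call after PBS between populations ended without Ly-6D+ PBS replicate 2 (adjusted p = 0.0721).

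Zbp1, which binds Z-form nucleic acid and can trigger necroptosis, was the sensor with the highest change after CpG. It read 6.92, 7.20 and 6.09 in Ly-6D- CLPs after PBS and 7.36, 7.58 and 7.17 after CpG, with overlap at replicate 2 of the PBS group. Its change was 0.63 (SE 0.26, limma adjusted p = 0.359) in Ly-6D- CLPs and 0.40 (SE 0.29, adjusted p = 0.902) in Ly-6D+ CLPs, where it read 6.33 and 6.48 after PBS and 6.71, 7.17 and 6.55 after CpG. The first value was 0.31 without PBS replicate 3, and the second 0.22 without CpG replicate 2. The 5 sensors had a median change of -0.093 in Ly-6D- and -0.086 in Ly-6D+ CLPs after CpG. Apart from Ddx58, none of them passed in any of the 6 comparisons.

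The 3 transcription factors are the DNA-binding core of the response. Stat2, the interferon-specific subunit of ISGF3, read 8.41 and 8.32 in Ly-6D+ CLPs after PBS and 8.40, 8.81 and 8.40 after CpG, and in Ly-6D- CLPs it read 8.04, 8.04 and 7.83 after PBS and 7.73, 7.72 and 7.87 after CpG. Every Ly-6D+ array was above every Ly-6D- array. After CpG, Stat2 was 1.70-fold higher in Ly-6D+ CLPs (log2 difference 0.77, SE 0.12, limma adjusted p = 0.00920), a call that ended when only the 2 groups compared were fitted (adjusted p = 0.0595). After PBS the difference was 0.39 (SE 0.14, limma adjusted p = 0.248).

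Irf9, which gives ISGF3 its DNA contact, was lower after CpG without overlap in both populations. It read 7.87 and 7.60 after PBS and 7.50, 7.50 and 7.49 after CpG in Ly-6D+ CLPs, and 7.50, 7.65 and 7.50 after PBS and 7.19, 7.31 and 7.30 after CpG in Ly-6D- CLPs. The value 7.4976 was identical on Ly-6D+ CpG replicate 2 and on Ly-6D- PBS replicates 1 and 3. Exact ties within a group narrow its spread, and their origin was not tested. The change was -0.24 (SE 0.11, limma adjusted p = 0.772) in Ly-6D+ and -0.28 (SE 0.10, adjusted p = 0.257) in Ly-6D- CLPs, and -0.26 in the average (adjusted p = 0.185). The Ly-6D+ value was -0.10 without PBS replicate 1 and -0.37 without PBS replicate 2. Being lower without overlap in both populations held for Irf9 and Ifit3 among the members and for 1.62% of all genes. Irf7, which drives transcription of the interferon alpha genes, read 6.84 on both Ly-6D+ PBS arrays and 6.42, 6.94 and 6.17 after CpG, a change of -0.32 (SE 0.20, limma adjusted p = 0.869). In Ly-6D- CLPs it read 6.96, 7.19 and 6.77 after PBS and 6.84, 6.92 and 6.77 after CpG, and the groups overlapped in both populations. Its value was identical (6.83507) on both Ly-6D+ PBS arrays and on Ly-6D- CpG replicate 1, so the SD of the Ly-6D+ PBS group was 0. Exact ties within a group also occurred for Isg15 in Ly-6D- CLPs after CpG and for Ifi35 in Ly-6D+ CLPs after PBS. Identical values recurred across groups for other members, among them Isg20 and Adar.

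The oligoadenylate synthetase family makes, or is related to enzymes that make, the second messenger of the RNA-degrading enzyme RNase L. Its 4 members were all lower after CpG in Ly-6D- CLPs (median -0.41) and all above 0 in Ly-6D+ CLPs (median 0.084), with 0 past the test in either. In the test of the difference between those changes 0 of the 4 passed. After PBS all 4 were lower in Ly-6D+ than in Ly-6D- CLPs (median -1.02), and 1 passed.

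That member, Oasl2, an interferon-induced synthetase-like protein, showed the largest population difference of the members. It read 5.10 and 5.17 in Ly-6D+ CLPs after PBS, 5.58, 6.00 and 5.32 in Ly-6D+ CLPs after CpG, 7.16, 6.82 and 6.55 in Ly-6D- CLPs after PBS, and 6.25, 6.83 and 6.71 in Ly-6D- CLPs after CpG. All 5 Ly-6D+ arrays were below all 6 Ly-6D- arrays. Oasl2 was 3.27-fold lower in Ly-6D+ CLPs after PBS (log2 difference -1.71, SE 0.24, limma adjusted p = 0.00385). After CpG it was 1.95-fold lower (-0.96, SE 0.21, limma adjusted p = 0.0464).

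The PBS call for Oasl2 stood when any 1 array was left out (limma adjusted p up to 0.0493). The call after CpG ended in 7 of 11 single-array omissions, with the highest adjusted p, 0.177, when replicate 2 of the CpG-treated Ly-6D- group was missing. The other arrays were replicates 1 and 3 of the CpG-treated Ly-6D+ group, both PBS-treated Ly-6D+ arrays, replicate 3 of the CpG-treated Ly-6D- group and replicate 2 of the PBS-treated Ly-6D- group. That call also ended with the replicate number as a block (adjusted p = 0.0519), with only the groups compared (0.132) and with each array centred on its median (0.0542). Its change after CpG was 0.50 (SE 0.24, limma adjusted p = 0.792) in Ly-6D+ CLPs, without overlap, and -0.25 (SE 0.21, adjusted p = 0.717) in Ly-6D- CLPs.

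Oas2 and Oas3, which synthesise oligoadenylates on binding double-stranded RNA, were high in the same arrays as Ddx58. Oas2 read 6.87, 6.63 and 6.53 in Ly-6D- CLPs after PBS and 5.18, 6.08 and 6.39 after CpG, and in Ly-6D+ CLPs 5.49 and 5.58 after PBS and 5.15, 6.09 and 5.58 after CpG. Oas3 read 6.51, 6.03 and 6.05 in Ly-6D- CLPs after PBS and 5.41, 5.74 and 5.91 after CpG, and in Ly-6D+ CLPs 5.46 and 5.11 after PBS and 5.26, 5.62 and 5.15 after CpG. For both genes the 3 Ly-6D- PBS arrays were above the 8 others, and Ly-6D- CpG replicate 1 was the lowest of its group.

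None of their differences passed. In Ly-6D- CLPs the change after CpG was -0.79 for Oas2 (SE 0.30, limma adjusted p = 0.312) and -0.51 for Oas3 (SE 0.19, adjusted p = 0.298). Without Ly-6D- CpG replicate 1 the Oas2 change was -0.44. After PBS the population difference was -1.14 for Oas2 (SE 0.33, limma adjusted p = 0.145) and -0.91 for Oas3 (SE 0.21, adjusted p = 0.0577). Among the alternatives, Oas3 passed when the dimmest 33.3% of genes were left out (adjusted p = 0.0401), with trend and robust estimation (0.0369), with array weights (0.0494) and with a random block of replicate number within treatment (0.0431), and Oas2 when only the groups compared were fitted (adjusted p = 0.0362).

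**Figure D5:**
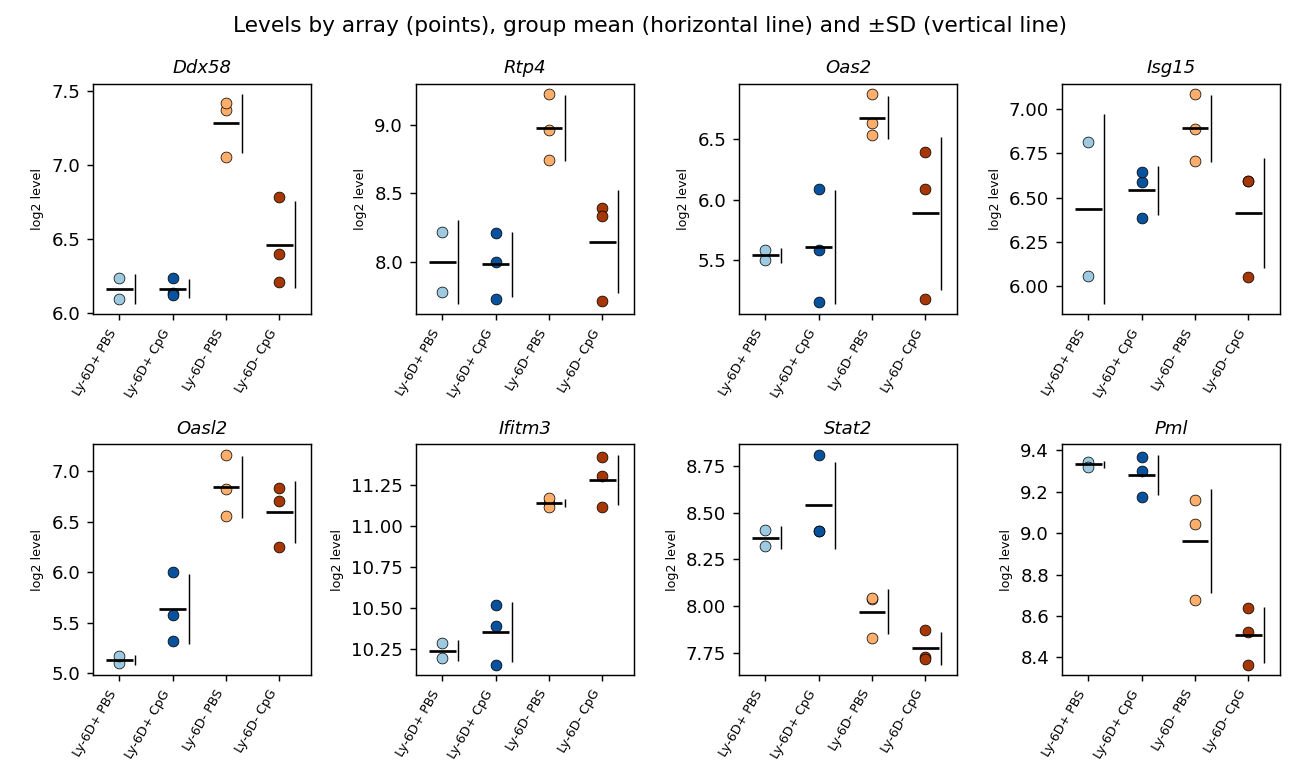
Log2 level (vertical axes, each with its own range and not starting at 0) of Ddx58, Rtp4, Oas2, Isg15, Oasl2, Ifitm3, Stat2 and Pml on every array, by group (horizontal axis), with the group mean as a horizontal bar and ± SD as a vertical line. For Ddx58, Rtp4 and Oas2 the 3 Ly-6D- PBS points lie above all other points, and for Oasl2, Ifitm3 and Stat2 the populations do not overlap under either treatment.

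The IFIT proteins bind viral RNA and hinder its translation, and the genes lie side by side or close together on chromosome 19. Ifit3, which stabilises Ifit1 on RNA, read 7.30 and 7.25 after PBS and 6.98, 7.20 and 6.57 after CpG in Ly-6D+ CLPs, and 6.97, 7.08 and 7.09 after PBS and 6.49, 6.42 and 6.71 after CpG in Ly-6D- CLPs. The CpG arrays were below the PBS arrays in both populations. The change was -0.35 (SE 0.17, limma adjusted p = 0.793) and -0.51 (SE 0.15, adjusted p = 0.187), and the average of -0.43 had the smallest adjusted p of the members, 0.155.

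Ifit1, which recognises RNA with an incomplete cap, read 5.01 and 4.59 after PBS and 4.94, 4.90 and 4.32 after CpG in Ly-6D+ CLPs, and 5.97, 5.67 and 4.78 after PBS and 4.86, 5.29 and 5.29 after CpG in Ly-6D- CLPs. Ifit2, linked to apoptosis as well as to antiviral defence, read 5.41 and 5.05 after PBS and 5.64, 5.30 and 5.55 after CpG in Ly-6D+ CLPs, and 5.51, 5.21 and 5.71 after PBS and 5.53, 6.11 and 5.37 after CpG in Ly-6D- CLPs. The groups of both genes overlapped, with changes of -0.082 and -0.32 for Ifit1 and 0.27 and 0.19 for Ifit2 in Ly-6D+ and Ly-6D- CLPs (limma adjusted p of 0.738 to 0.992).

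The Mx genes encode dynamin-like GTPases that trap viral particles, and the RefSeq annotation of this strain's genome lists both as transcribed pseudogenes. Mx2 had the lowest change of the members in Ly-6D+ CLPs. It read 5.73 and 6.06 after PBS and 5.08, 4.95 and 5.20 after CpG there, without overlap, and 5.68, 5.24 and 5.20 after PBS and 3.98, 5.53 and 4.22 after CpG in Ly-6D- CLPs, with overlap at CpG replicate 2. The change was -0.82 (SE 0.37, limma adjusted p = 0.765) and -0.80 (SE 0.33, adjusted p = 0.364), the latter -0.50 without CpG replicate 1 and -1.28 without CpG replicate 2. Mx1 read 5.48 and 4.62 after PBS and 4.96, 4.72 and 4.27 after CpG in Ly-6D+ CLPs, and 4.63, 4.31 and 4.40 after PBS and 3.95, 4.30 and 3.56 after CpG in Ly-6D- CLPs. Its change was -0.40 (SE 0.28, limma adjusted p = 0.900), resting on PBS replicate 1, without which it was 0.026, and -0.51 (SE 0.25, adjusted p = 0.475).

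Of the other antiviral effectors, Ifitm3 separated the populations under both treatments. It sits in endosomal membranes and blocks the fusion of incoming viruses. It read 10.19 and 10.28 in Ly-6D+ CLPs after PBS, 10.39, 10.52 and 10.15 in Ly-6D+ CLPs after CpG, 11.14, 11.12 and 11.17 in Ly-6D- CLPs after PBS, and 11.31, 11.42 and 11.12 in Ly-6D- CLPs after CpG. The 5 Ly-6D+ arrays were below the 6 Ly-6D- arrays. The difference was -0.90 (1.87-fold lower in Ly-6D+ CLPs, SE 0.13, limma adjusted p = 0.00433) after PBS and -0.93 (1.91-fold, SE 0.11, adjusted p = 0.00154) after CpG. The first call ended without Ly-6D+ PBS replicate 1 (adjusted p = 0.0593), and the second stood without any 1 array. After CpG the gene changed by 0.11 and 0.14 in Ly-6D+ and Ly-6D- CLPs, with 95% intervals of -0.17 to 0.40 and -0.11 to 0.39.

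Rtp4, an interferon-induced receptor-transporting protein, had the lowest change of the members after CpG in Ly-6D- CLPs. It read 9.22, 8.96 and 8.74 after PBS and 7.71, 8.39 and 8.33 after CpG there, and 8.21 and 7.78 after PBS and 8.0, 8.21 and 7.73 after CpG in Ly-6D+ CLPs. The 3 Ly-6D- PBS arrays were again above all others. The change was -0.83 (SE 0.21, limma adjusted p = 0.132) in Ly-6D- and -0.018 (SE 0.23, adjusted p = 1) in Ly-6D+ CLPs, and the population difference after PBS was -0.98 (SE 0.23, adjusted p = 0.0689). With a variance trend and robust estimation in limma, both the change in Ly-6D- CLPs (adjusted p = 0.0462) and the difference after PBS (0.0260) passed. The difference also passed without the dimmest 33.3% of genes (0.0499) and without Ly-6D- CpG replicate 1 (0.0367).

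Cmpk2, a mitochondrial nucleotide kinase whose gene lies next to that of the antiviral enzyme Rsad2 on chromosome 12, read 6.67, 6.08 and 5.83 after PBS and 6.49, 6.74 and 6.20 after CpG in Ly-6D- CLPs, and 6.27 and 6.44 after PBS and 6.36, 6.67 and 6.15 after CpG in Ly-6D+ CLPs. Samd9l, an interferon-induced restrainer of haematopoietic cell growth, read 5.54 and 5.40 after PBS and 5.58, 5.85 and 5.61 after CpG in Ly-6D+ CLPs, without overlap, and 5.63, 5.81 and 5.60 after PBS and 5.63, 5.54 and 5.60 after CpG in Ly-6D- CLPs. Neither passed: the change in Ly-6D- CLPs was 0.29 for Cmpk2 and -0.089 for Samd9l, and in Ly-6D+ CLPs 0.038 and 0.21.

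The Isg15 system attaches a ubiquitin-like protein to newly made proteins. Isg15 itself read 7.08, 6.70 and 6.89 after PBS and 6.05, 6.59 and 6.59 after CpG in Ly-6D- CLPs, and 6.82 and 6.06 after PBS and 6.38, 6.59 and 6.65 after CpG in Ly-6D+ CLPs. The value 6.59294 was identical on Ly-6D- CpG replicates 2 and 3. The groups did not overlap in Ly-6D- CLPs, while in Ly-6D+ CLPs the PBS arrays enclosed the CpG arrays. The change was -0.48 (SE 0.21, limma adjusted p = 0.394) and 0.10 (SE 0.23, adjusted p = 0.985).

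Usp18, the protease that removes Isg15 and damps signalling at Ifnar2, read 7.41, 6.96 and 6.76 after PBS and 6.14, 6.49 and 6.87 after CpG in Ly-6D- CLPs, and 7.36 and 7.03 after PBS and 6.79, 7.10 and 6.81 after CpG in Ly-6D+ CLPs. The groups overlapped in both populations, with changes of -0.54 (SE 0.21, limma adjusted p = 0.325) and -0.29 (SE 0.23, adjusted p = 0.925). Trim30a, a TRIM protein reported to restrain Toll-like receptor signalling, read 6.00 and 6.36 after PBS and 6.53, 6.35 and 5.96 after CpG in Ly-6D+ CLPs, and 5.82, 5.15 and 5.37 after PBS and 5.90, 6.01 and 5.49 after CpG in Ly-6D- CLPs. Its difference after PBS, 0.73 (SE 0.24, limma adjusted p = 0.199), was the highest of the members and its change after CpG in Ly-6D- CLPs was 0.35 (adjusted p = 0.571). The 6 members of this role had a median change after CpG of -0.34 in Ly-6D- and -0.014 in Ly-6D+ CLPs, with 0 past the test.

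The interferon-induced PARP enzymes attach ADP-ribose to proteins, and their 3 measured members were the role with the highest median change after CpG in Ly-6D+ CLPs, 0.28. Parp12 read 5.11 and 5.68 after PBS and 6.22, 6.28 and 5.94 after CpG there, without overlap, and 6.55, 5.92 and 6.66 after PBS and 7.01, 6.74 and 6.54 after CpG in Ly-6D- CLPs. Its change was 0.75 (SE 0.24, limma adjusted p = 0.572) and 0.39 (SE 0.22, adjusted p = 0.537), and 0.57 in the average (adjusted p = 0.200). After PBS Parp12 was lower in Ly-6D+ than in Ly-6D- CLPs by a log2 difference of -0.98 (SE 0.24, limma adjusted p = 0.0816), without overlap. This difference passed with trend and robust estimation (adjusted p = 0.0444) and without Ly-6D- PBS replicate 2 (0.0295). Parp14 read 7.53 and 7.54 after PBS and 7.91, 7.96 and 7.58 after CpG in Ly-6D+ CLPs, a change of 0.28 (adjusted p = 0.805), and 7.79, 7.73 and 7.63 after PBS and 7.50, 7.87 and 7.76 after CpG in Ly-6D- CLPs, a change of -0.0052.

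Pml and Sp100 are scaffold proteins of nuclear bodies. Pml read 9.34 and 9.32 in Ly-6D+ CLPs after PBS, 9.30, 9.18 and 9.37 in Ly-6D+ CLPs after CpG, 9.16, 9.04 and 8.68 in Ly-6D- CLPs after PBS, and 8.52, 8.37 and 8.64 in Ly-6D- CLPs after CpG. The populations did not overlap, and within Ly-6D- CLPs the CpG arrays were below the PBS arrays. After CpG, Pml was 1.71-fold higher in Ly-6D+ CLPs (log2 difference 0.77, SE 0.13, limma adjusted p = 0.0112), a call that ended without Ly-6D- CpG replicate 2 (adjusted p = 0.0597). The difference after PBS was 0.37 (SE 0.15, limma adjusted p = 0.323), and the change after CpG in Ly-6D- CLPs was -0.45 (SE 0.13, adjusted p = 0.178).

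In Ly-6D+ CLPs Sp100 read 9.24 and 9.26 after PBS and 9.08, 9.30 and 9.18 after CpG, against 9.01, 9.14 and 8.78 after PBS and 8.90, 8.94 and 8.97 after CpG in Ly-6D- CLPs. The populations did not overlap under either treatment, with differences of 0.27 and 0.25 (limma adjusted p of 0.402 and 0.367). The 4 probe sets of Sp100 disagreed in direction, with differences after PBS of 0.27, -0.047, 0.091 and 0.64. Their mean log2 levels were 9.07, 7.85, 2.45 and 2.25 in that order, so the last 2 differences come from dim probe sets. Xaf1, a pro-apoptotic antagonist of caspase inhibitors, read 8.99, 8.99 and 8.55 after PBS and 8.29, 8.20 and 8.61 after CpG in Ly-6D- CLPs, and 8.06 and 8.20 after PBS and 8.15, 8.51 and 8.29 after CpG in Ly-6D+ CLPs. The Ly-6D- groups of Xaf1 overlapped at CpG replicate 3, and the log2 change of -0.48 did not pass (SE 0.16, limma adjusted p = 0.232).

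The 14 members not given singly had log2 changes after CpG of -0.21 to 0.13 in Ly-6D+ CLPs (limma adjusted p of 0.925 to 1) and -0.44 to 0.13 in Ly-6D- CLPs (0.211 to 0.985), with 10 of the 14 lower in each. Their population differences ran from -0.79 to 0.18 after PBS (adjusted p from 0.142) and from -0.81 to 0.47 after CpG (from 0.0847). They include the editing enzyme Adar, the kinase Eif2ak2, the sensor Ifih1 and the lipid-droplet enzyme Rsad2.

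The genes upstream of the list were set beside it by lists of the pathway's steps. Of 14 measured type I interferon genes, the ligands, 0 passed for CpG against PBS in either population, with median changes of 0.035 in Ly-6D+ and -0.12 in Ly-6D- CLPs. By the unadjusted limma p, 0 ligands in Ly-6D+ and 2 in Ly-6D- CLPs, both lower, were below 0.05. Ifnb1, the interferon beta gene, changed by 0.25 and 0.13 (limma adjusted p of 0.837 and 0.742). The summed linear level of the 14 ligands stayed between 160 and 215 on every array. Of 14 receptor and signalling genes 0 passed the limma test in either population, with 3 at an unadjusted p below 0.05 in each. In the average of both populations 1 passed, Socs3, a feedback inhibitor of cytokine receptors, which rose by 0.61 (SE 0.11, limma adjusted p = 0.0471). Ifnar1 and Ifnar2, the receptor chains, changed by 0.10 and 0.10 in Ly-6D+ and by 0.0066 and 0.072 in Ly-6D- CLPs.

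Of 14 genes that lead from nucleic acid receptors to interferon production, 0 passed for CpG in Ly-6D+ CLPs, and 1 passed in the Ly-6D- population. This was Tlr7, the endosomal receptor for single-stranded RNA, which fell by 0.75 on the log2 scale (SE 0.12, limma adjusted p = 0.0300). It read 8.80, 8.88 and 8.77 after PBS and 7.99, 7.97 and 8.24 after CpG, without overlap. Tlr9, the receptor that CpG oligonucleotides engage, read 7.98 and 7.97 in Ly-6D+ CLPs after PBS and 7.89, 7.70 and 8.29 after CpG, and in Ly-6D- CLPs 6.70, 6.41 and 6.01 after PBS and 7.10, 7.41 and 7.21 after CpG. It was 3.03-fold higher in Ly-6D+ than in Ly-6D- CLPs after PBS (log2 difference 1.60, SE 0.21, limma adjusted p = 0.00280), and its change after CpG in Ly-6D- CLPs was 0.87 (adjusted p = 0.0760). Irf8, Slc15a4 and Unc93b1, which serve Tlr9 signalling or its trafficking, were also higher in Ly-6D+ CLPs after PBS, by 0.72, 0.59 and 0.50 (limma adjusted p of 0.00404, 0.0453 and 0.0465). After CpG the genes of this list that passed between populations were Tlr7 and Mavs, the adaptor of Ddx58, higher in Ly-6D+ CLPs by 0.59 and 0.53 (limma adjusted p of 0.0311 and 0.00920).

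A list of 43 further measured interferon-stimulated genes, kept apart from the 39, gave 0 genes past the test for CpG in either population, with medians of 0.014 in Ly-6D+ and -0.043 in Ly-6D- CLPs. At an unadjusted limma p below 0.05, 6 of them were higher and 6 lower in Ly-6D- CLPs (6.35% and 5.66% of all genes). Between populations after PBS, 30 of the 43 were lower and 13 higher in Ly-6D+ CLPs, and 13 were lower and 4 higher at an unadjusted p below 0.05 (6.06% and 5.86% of all genes). Of these, 5 passed, against 1.98% of all genes. Ifitm1 (-0.93), Ifitm2 (-0.64), Ifi27 (-0.67) and Mlkl (-0.83) were lower in Ly-6D+ CLPs, and Bst2, which is also a plasmacytoid dendritic cell marker, was higher by 0.97 (limma adjusted p of 0.000755 to 0.0454). After CpG, 4 passed, against 2.14% of all genes. Bst2 was higher (0.58) and Ifitm1 (-1.16), Ifitm2 (-0.80) and Mlkl (-1.09) were lower in Ly-6D+ CLPs. Ifitm1 and Ifitm2 are close relatives of Ifitm3.

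The interferon-gamma-inducible genes went otherwise in the same arrays. Of 17 measured, 16 were above 0 after CpG in Ly-6D+ CLPs, with a median of 0.74 and 0 past the test. In Ly-6D- CLPs 15 were above 0, with a median of 0.65. At an unadjusted limma p below 0.05 there were 12 in Ly-6D+ and 11 in Ly-6D- CLPs. Of all genes, 51.0% and 49.8% were above 0 in Ly-6D+ and Ly-6D- CLPs. An unadjusted p below 0.05 in either direction was found for 6.51% and 12.0% of all genes, and 0.0271% and 0.546% passed. In Ly-6D- CLPs 4 passed: the chemokines Cxcl9 (log2 change 3.04, limma adjusted p = 0.0336) and Cxcl10 (1.50, 0.0405), the GTPase Igtp (1.03, 0.0416) and the MHC class I activator Nlrc5 (0.65, 0.0444). Igtp read 8.41, 8.36 and 8.16 after PBS and 9.26, 9.60 and 9.17 after CpG there. The list was known from earlier results of these data to move, so its counts are a description beside those of the 39. The ISRE core was in 9 of its 13 promoter windows (69.2%) and in 19 of 41 windows of the further interferon-stimulated genes (46.3%). Another element searched, GAS (TTCNNNGAA), was in 7 of the 13 windows (53.8%), 6 of 31 of the members (19.4%) and 9.55% of all genes. The ISRE core is thus shared by these lists, and which interferon acted on their genes was not tested.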

How the data were processed

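Per the submitters' processing notes the authors used Partek and RMA, and the deposited values are log2 expression per probe set. RNA was amplified from small amounts with a NuGEN whole-transcriptome kit, per the labels. Versions, background settings and annotation: not given in the sources used here. No further normalisation was applied to the deposited values. Of 41345 probe sets, 23521 carried exactly 1 gene symbol in the probe table supplied with the series, 1814 several and 16010 none. Each of 22180 genes was represented by its brightest such probe set. Groups follow the titles (population and treatment), and their 2 or 3 arrays limit the precision.

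All 11 arrays entered a single model of 4 group means, run in R 4.3.3 through limma 3.58.1 (lmFit, then eBayes with defaults). It had 7 residual degrees of freedom and 3.48 from the prior, and was tested on simulated data. The SE comes from the moderated spread, intervals cover 95%, and p-values were adjusted by Benjamini-Hochberg over all genes. Python 3.11.15, pandas 2.3.3 and matplotlib 3.10.9 made tables and figures. Summed levels are sums of 2 to the power of the log2 values.

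The members, the other lists and the tests were chosen with earlier results of these data known. Named singly with all values were 25 members: those passing in any of 6 comparisons, the 6 largest rises and falls in each CpG comparison and between populations after PBS, the 4 smallest p in each other comparison, and Irf7, Irf9, Stat2, Isg15, Usp18, Mx1 and Ifit1. Promoter windows came from a RefSeq table (GRCm38.p6). The alternatives were averaging each gene's probe sets, leaving out the dimmest 33.3% of genes, array weights, a variance trend with robust estimation, fitting only the groups compared, quantile normalisation, centring on the median, a threshold of 0.10, replicate blocks, and leaving out each array, plus all arrays numbered 3, added after the data were seen.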

Additional observations from a re-analysis of the deposited data

How the results depend on the processing

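The count of members past the test for CpG in Ly-6D+ CLPs and for the difference of the CpG effects was 0 under every alternative run. In Ly-6D- CLPs the count of 1 was 2 with a variance trend and robust estimation, 0 with only the groups compared and 0 with the replicate number as a block (Ddx58 adjusted p = 0.0787), and ran from 0 to 1 when 1 array was left out. The block also ended the Oasl2 call after CpG (adjusted p = 0.0519). Replicate numbers were not taken to pair the samples: the labels state no pairing, and same-numbered arrays of one treatment correlated by -0.0065 to 0.176 over all genes in their deviations from the group means, which leaves a pairing unsettled. The average count ran from 0 to 1 when 1 array was left out. After PBS the count of 3 was 5 without the dimmest 33.3% of genes, 7 with trend and robust estimation and 7 at an adjusted p below 0.10, and ran from 2 to 4 when 1 array was left out. After CpG the count of 4 was 2 with only the groups compared and ran from 3 to 5 when 1 array was left out. Median changes of the members ran, with 1 array left out, from -0.070 to 0.089 in Ly-6D+ and from -0.28 to -0.10 in Ly-6D- CLPs. They ran from -0.28 to -0.068 for the difference of the CpG effects and from -0.19 to -0.068 for the average. Between populations they ran from -0.26 to -0.14 after PBS and from -0.078 to 0.027 after CpG. The sign after CpG turned without Ly-6D- CpG replicate 2 (0.027) and also without Ly-6D+ CpG replicate 3 (0.015). Without the arrays numbered 3, the Ly-6D- median was -0.33 and that of the difference -0.29. Of the values of named genes followed here, leaving out 1 array moved 29 of the 50 that did not pass by over 1.5 times, and 0 of the 8 that passed. The move is relative to the value itself, and values that passed are large against their SE, so this contrast was largely set in advance. It does not show that the calls hold: those of Ddx58, Ifitm3 after PBS, Oasl2 after CpG and Pml each ended without some array. Signs turned for Ifit1 in Ly-6D+ CLPs (0.075 with the replicate block, 0.12 without CpG replicate 3 or the arrays numbered 3, 0.13 without PBS replicate 1), Mx1 there (0.026 without PBS replicate 1, down to -0.83 without replicate 2), Isg15 there (-0.28 without PBS replicate 2, up to 0.48 without replicate 1) and Ifit2 in Ly-6D- CLPs (-0.029 without CpG replicate 2, up to 0.34 without replicate 3). The cause was not tested. No scaling moved the median of all genes by more than 0.1. With 2 or 3 arrays per group, changes of under about 0.37 to 0.41 on the log2 scale lie within the median 95% interval, and a p that misses the threshold does not show that a gene did not change.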
